A study of Homo sapiens with 60 samples.

Results

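The comparison described here set 3 libraries of HT29 cells treated with Sagunja-tang at 20 µg/mL against 3 libraries treated with Samul-tang at the same dose, 6 of the 60 libraries of the series, across the 16356 genes that passed the filter on low counts. The libraries were taken by the formula and dose that the sample labels give, while the comparison itself was taken up with earlier results of these data known. HT29 is an established epithelial line from a human colorectal adenocarcinoma. Sagunja-tang and Samul-tang are tonic formulae of East Asian medicine. By tradition the former is a decoction of ginseng, Atractylodes, Poria and licorice, and the latter of prepared Rehmannia, Angelica, Cnidium and Paeonia. The labels name the formulae but not their plants, and treatment lasted 24 h for both. The same formulae at 100 and 500 µg/mL, with 3 libraries each, and the vehicle dimethyl sulfoxide, with 3 libraries, serve as points of reference. Doses are the nominal ones of the labels. The question the comparison addresses is how far the formulae differ in the inflammatory genes of the cells at the lowest dose.

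At 20 µg/mL, 39 genes were called different at an adjusted p under 0.05 (edgeR's quasi-likelihood test, 0.238% of the genes tested), and all 39 were higher in Sagunja-tang. In each of the 39, all 3 Sagunja-tang libraries lay above all 3 Samul-tang libraries, as they did in 5.02% of all genes tested. They were led by chemokines that attract neutrophils. CXCL1 averaged 25.5 ± 1.69 CPM (counts scaled to library size, mean ± SD, n = 3) under Sagunja-tang and 1.85 ± 0.174 CPM under Samul-tang, and CXCL8 averaged 26.7 ± 1.06 against 6.37 ± 0.147 CPM. The other called genes encode further chemokines, complement and acute phase proteins, secreted epithelial defence proteins, feedback inhibitors of NF-κB and proteins of the interferon response. No gene was called lower in Sagunja-tang after the filter on low counts. Of the 39, C3, CXCL5, DOC2B, IL17C, MIR3142HG and SAA1 were at most at 0.308 CPM in the 48 libraries of groups other than Sagunja-tang. These genes passed that filter only through Sagunja-tang libraries, so the filter set their direction. Without that filter, the same test called 71 genes higher and 54 lower, 3 of the 54 outside the filtered genes. With it, at an unadjusted p under 0.05, 281 genes were higher and 236 lower, the smallest adjusted p among the lower genes was 0.109, and DESeq2 called 33 higher and 2 lower. The median log2 fold change over all genes tested was -0.0017. Fold changes are Sagunja-tang over Samul-tang on the log2 scale with their standard errors (SE), and adjusted p-values are from edgeR's quasi-likelihood test with Benjamini-Hochberg adjustment over all 16356 genes.

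NF-κB is a family of dimeric transcription factors held in the cytoplasm by IκB proteins until receptors for bacterial products or for cytokines such as TNF and IL-1 activate the IκB kinases. The freed dimers bind short κB sites near their target genes, which include chemokines as well as the inhibitors that end the response, such as NFKBIA and TNFAIP3. In the colon, epithelial cells that respond in this way release CXC chemokines that call in neutrophils and CCL20, which calls in dendritic cells and lymphocytes. The interferon response is a separate programme, in which interferon receptors at the cell surface switch on antiviral genes.

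The 6 libraries held 24701930 to 30770109 counts and were alike in the measures of quality that the counts give. Mitochondrial mRNA took 6.59 to 7.55% of their counts, against 8.71 to 11.4% in the vehicle libraries, which carry another leading number in their sample codes than the formula libraries. Replicates correlated at 0.9916 to 0.9933 (Pearson's r over genes, log2 CPM), and every replicate pair differed by more than counting noise, at 2.84 to 8.48 times the expected chi-square per gene. The 13 markers of colon epithelium summed to 12062 to 12526 CPM under Sagunja-tang and 11803 to 12482 CPM under Samul-tang. Of the 15 leukocyte markers, CD3D, CD3E, FCGR3A, LST1, MS4A1 and TYROBP were at 0 in all 6 libraries, and the pan-leukocyte gene PTPRC did not exceed 0.0746 CPM in any. The list's sum of 1421 to 1517 against 1426 to 1552 CPM was nearly all LYZ, at 1411 to 1506 and 1416 to 1541 CPM. CD68 was at 4.24 to 6.17 and 4.73 to 6.52 CPM, CD14 at 2.98 to 3.47 and 2.63 to 3.55 CPM, and ITGAM at 1.81 to 1.95 and 1.41 to 1.72 CPM. The 12 fibroblast markers summed to 2.76 to 4.18 and 2.96 to 3.89 CPM. The 10 endothelial markers summed to 64.1 to 69.0 and 69.1 to 70.8 CPM, with CDH5 and KDR at 0 in all 6. That sum was mostly ESAM, at 39.5 to 42.3 and 41.4 to 43.7 CPM, and ENG, at 21.6 to 23.4 and 24.2 to 24.9 CPM. The 12 hepatocyte markers summed to 17.6 to 20.8 and 19.1 to 20.6 CPM, mostly APOH, with ALB at 0. None of the tested members of these lists was called, and none passed an unadjusted p under 0.05. In bulk libraries such as these, a change in the number of cells that express a gene and a change in the RNA each of them holds cannot be told apart.

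The promoter sequences of the called genes were searched for κB sites. The search was planned for CXCL1, CXCL8 and CCL20 and then extended to the other called genes. Chemokine genes are already known as κB targets, so a match in them is no independent support. RefSeq windows from 250 bases before to 50 bases after the start of transcription, on GRCh38.p14, were at hand for 30 of the 39 called genes. They were searched on both strands for 3 spellings of a κB site. The first is GGAATTTCC, the second GGG and TTTCC with 2 unspecified bases between them, and the third GGGA and CCC with 3 unspecified bases between them. The first and the second overlap in 5 of the chemokines. The 120 bases before the start are shown for the genes that mark the comparison, CXCL1 at chr4:73869273-73869392 and CXCL8 at chr4:73740449-73740568, and for CCL20 at chr2:227813722-227813841, all on the plus strand, with every match to any of these spellings in capitals.
CXCL1: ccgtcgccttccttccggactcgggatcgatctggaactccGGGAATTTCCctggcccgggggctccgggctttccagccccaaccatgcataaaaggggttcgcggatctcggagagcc
CXCL8: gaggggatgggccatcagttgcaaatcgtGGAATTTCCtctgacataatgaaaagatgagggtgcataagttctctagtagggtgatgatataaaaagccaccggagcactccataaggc
CCL20: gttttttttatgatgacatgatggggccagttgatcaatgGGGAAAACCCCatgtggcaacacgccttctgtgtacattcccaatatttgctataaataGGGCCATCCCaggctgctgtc

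The spelling GGAATTTCC was in the windows of 8 of the 30 called genes, CXCL1, CXCL2, CXCL3, CXCL5, CXCL6, CXCL8, ICAM1 and OAS3, and in 0.461% of all 35116 windows. All 6 called CXC chemokines were among them. Near copies are among the 8 genes, namely CXCL1, CXCL2 and CXCL3 and likewise CXCL5 and CXCL6, so these are not 8 separate matches. Their sites, with 8 bases on either side and the motif in capitals, are set below each other to show how far they share their surroundings. The first base of the motif lay 78, 77 and 78 bases before the start in CXCL1, CXCL2 and CXCL3, 90 and 89 bases before it in CXCL5 and CXCL6, and 91 bases before it in CXCL8. ICAM1, whose motif is on the minus strand and is printed as the plus strand of the gene reads, and OAS3 have theirs 186 and 129 bases before the start.
CXCL1: gaactccgGGAATTTCCctggcccg
CXCL2: gagctccgGGAATTTCCctggcccg
CXCL3: gagctccgGGAATTTCCctggcccg
CXCL5: gagttcagGGAATTTCCccagcatc
CXCL6: gagttcagGGAATTTCCccagcatc
CXCL8: caaatcgtGGAATTTCCtctgacat
ICAM1: tttagcttGGAAATTCCggagctga
OAS3: gaaagcagGGAATTTCCcaagtttg

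The 25 bases are identical in CXCL2 and CXCL3, and likewise in CXCL5 and CXCL6. The second spelling was in 12 of the 30 genes and 1.91% of all windows, the third in 4 and 7.59%, and any of the 3 in 16 and 9.48%. The 30 genes have 40 windows between them, since some have more than one start, so a gene has more chances of a match than a single window has. These matches are spellings in a fixed window, and binding was not measured.

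Chemokines were the list with the largest difference. Of its 19 genes, 14 were tested, 7 rose, none fell, and the median log2 fold change of those tested was 1.40, beside -0.0017 over all genes. CXCL5 is among the 7 and was tested only through its Sagunja-tang libraries, so the filter set part of the count and median. The 3 CXCL1 values under Sagunja-tang were 24.1, 27.4 and 24.9 CPM and those under Samul-tang 1.73, 1.77 and 2.05 CPM. CXCL1, which attracts neutrophils through CXCR2, thus had no overlap between groups, with a log2 fold change of 3.78 (SE 0.17, adjusted p = 7.43e-22). CXCL8, or interleukin-8, the main neutrophil attractant in humans, stood at 26.5, 25.7 and 27.8 CPM under Sagunja-tang. Its Samul-tang libraries gave 6.26, 6.54 and 6.31 CPM, and the log2 fold change was 2.07 (SE 0.09, adjusted p = 9.64e-22). The groups lay far apart for both genes, and their replicates close together.

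**Figure D1:**
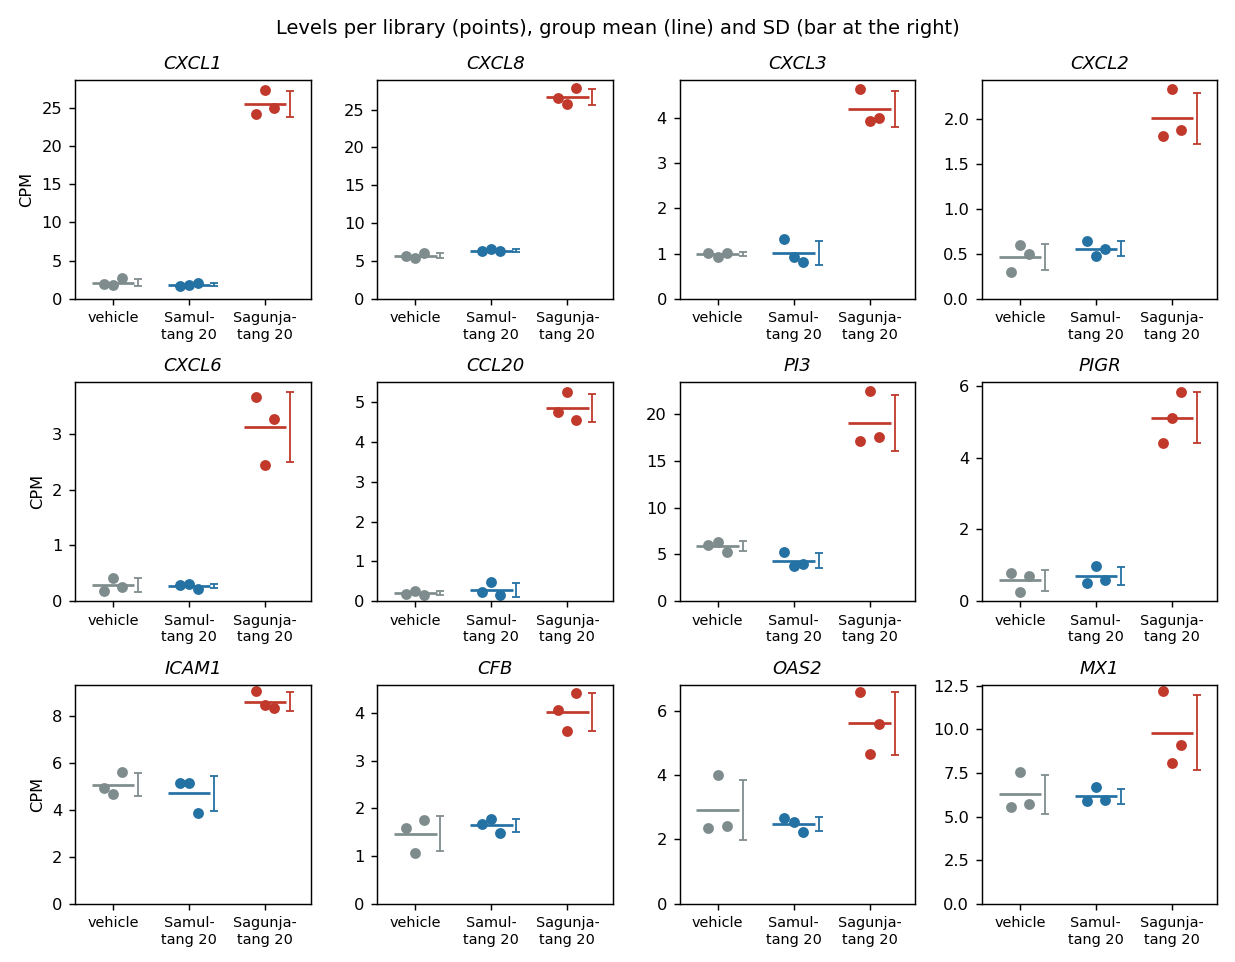
Level in CPM (vertical axis, linear, from 0) of 12 genes in each library of the vehicle, Samul-tang 20 µg/mL and Sagunja-tang 20 µg/mL (points, 3 a group), with the group mean (line) and SD (bar). In each of the 12 panels the 3 Sagunja-tang libraries lie above all Samul-tang and all vehicle libraries, and the gap is widest, relative to the level, for CXCL1, CXCL6 and CCL20.

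CCL20, the ligand of CCR6 on dendritic cells and T helper 17 cells, was at 4.77, 5.25 and 4.55 CPM under Sagunja-tang and at 0.225, 0.477 and 0.149 CPM under Samul-tang (log2 fold change 4.06, SE 0.25, adjusted p = 3.89e-17). CXCL6 was at 3.66, 2.45 and 3.27 CPM against 0.289, 0.306 and 0.224 CPM (3.48, SE 0.26, adjusted p = 6.05e-14). CXCL3 was at 4.65, 3.93 and 4.01 CPM against 1.32, 0.919 and 0.821 CPM (2.02, SE 0.19, adjusted p = 1.18e-10). Both are further ligands of the neutrophil receptor CXCR2. CXCL2, another of them, was at 1.81, 2.34 and 1.89 CPM against 0.642, 0.477 and 0.560 CPM (1.84, SE 0.23, adjusted p = 4.91e-07). CXCL5, of the same group, had 64 counts in the 3 Sagunja-tang libraries together and 1 in the 3 Samul-tang libraries, a ratio of 67.1 per unit of depth with an exact 95% interval of 11.6 to 2691 that covers counting error only (adjusted p = 4.60e-05). Among the tested chemokines that did not pass, CX3CL1 had a log2 fold change of 0.71 (SE 0.38), CXCL10, an interferon-responsive attractant of T cells, 0.96 (SE 0.65) and CXCL16 -0.12 (SE 0.11), each with an adjusted p of 1. The 7 calls held when any 1 of the 6 libraries was left out.

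The 6 called CXC chemokines sit side by side on chromosome 4. On GRCh38 with GENCODE 29 they span chr4:73740506-74099293, 359 kb, in which the table has 16 annotated genes. Only these 6 of the 16 had enough counts to be tested, and all 6 were called. CXCL5 was at most at 0.0457 CPM in the 48 libraries of the groups other than Sagunja-tang, so that it entered the test only through the Sagunja-tang libraries and nothing is read from the count of 6. From the low to the high end they are CXCL8 (plus strand, log2 fold change 2.07), CXCL6 (plus, 3.48), CXCL1 (plus, 3.78), CXCL5 (minus, 5.57), CXCL3 (minus, 2.02) and CXCL2 (minus, 1.84). CXCL5 as fitted depends on how a near-zero group is handled, so its place in this order is not firm. CXCL1, CXCL2 and CXCL3 are near copies of each other, as are CXCL5 and CXCL6. The program that made the counts divides reads that match more than one gene, and the split between such copies is uncertain. The remaining 10 genes, among them the platelet chemokines PF4, with 19 counts in the 6 libraries, and PPBP, with 0, were not tested.

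Complement and acute phase genes included some of the steepest rises. Of 20 genes, 12 were tested and 3 rose, with a median log2 fold change of 0.48. C3 and SAA1, among the 3, were tested only through Sagunja-tang libraries, so the filter set part of the count and median. Complement C3, on which all routes of complement converge, had 166 counts under Sagunja-tang and 5 under Samul-tang, which in CPM were 1.93, 1.74 and 2.29 against 0.0964, 0.0340 and 0.0373 (log2 fold change 5.01, SE 0.47, adjusted p = 1.28e-10). CFB, complement factor B of the alternative pathway, was at 4.06, 3.62 and 4.41 CPM against 1.67, 1.77 and 1.49 CPM (1.29, SE 0.17, adjusted p = 2.25e-06). Fragments of these proteins together form the convertase of that pathway. SAA1, serum amyloid A, had 27 counts against 0. Set against a floor of 3 counts over the Samul-tang group it was at least 9.43-fold higher (adjusted p = 0.0076), and it was not called without Samul-tang replicate 1 (adjusted p = 0.064) or 2 (0.055). SAA2, its neighbour and near copy, had 19 counts against 0 and was too low to test. Members that did not pass included SERPINA3, at 1.66 (SE 0.81, adjusted p = 1).

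Secreted and surface defence genes of the epithelium followed. Of 33 genes, 20 were tested and 6 rose, with a median log2 fold change of 0.14. PI3 encodes elafin, an inhibitor of neutrophil elastase, and was at 17.1, 22.5 and 17.6 CPM against 5.24, 3.78 and 3.96 CPM (2.13, SE 0.13, adjusted p = 3.89e-17). PIGR, the receptor that carries IgA and IgM across the epithelium, was at 4.41, 5.10 and 5.83 CPM against 0.514, 0.987 and 0.597 CPM (2.87, SE 0.26, adjusted p = 8.39e-11). ICAM1, an adhesion molecule bound by leukocyte integrins, was at 9.06, 8.44 and 8.32 CPM against 5.14, 5.14 and 3.84 CPM (0.86, SE 0.11, adjusted p = 4.91e-07). In these genes the gap between the lowest Sagunja-tang and the highest Samul-tang library was wider than the range within either group.

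CEACAM7, a surface adhesion protein of mature colon epithelium, was at 1.58, 1.60 and 1.48 CPM against 0.418, 0.647 and 0.336 CPM (1.72, SE 0.32, adjusted p = 0.00196). It was not called without Samul-tang replicate 3 (adjusted p = 0.052). MMP7, matrilysin, a protease that activates defensins, was at 63.5, 66.2 and 55.2 CPM against 47.4, 43.2 and 44.3 CPM (0.45, SE 0.08, adjusted p = 0.00051). LCN2, which captures bacterial siderophores, was at 125, 145 and 114 CPM against 95.2, 90.6 and 88.7 CPM (0.49, SE 0.11, adjusted p = 0.028). For LCN2 the vehicle libraries, at 106, 114 and 119 CPM, lay above all Samul-tang libraries and reached into the Sagunja-tang range, and its call was lost without Sagunja-tang replicate 1 (adjusted p = 0.078) or 2 (0.37) and without Samul-tang replicate 1 (0.10), 2 (0.20) or 3 (0.24). Not past the test were DMBT1, a mucosal scavenger protein, at 1.01 (SE 0.30, adjusted p = 0.40), DUOX2, an oxidase that makes hydrogen peroxide, at 1.38 (SE 0.56, adjusted p = 1), and PTGS2, cyclooxygenase-2, at 0.19 (SE 0.06, adjusted p = 0.54). DEFB4A and NOS2 had no counts in any of the 6 libraries.

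Few cytokines and growth factors passed the test, and many were too low to test. Of 24 genes, 13 were tested and 1 rose, with a median of 0.06. CSF1, the growth factor of macrophages, was at 1.54, 1.56 and 1.89 CPM against 0.803, 0.817 and 0.709 CPM (1.09, SE 0.21, adjusted p = 0.0024), and was not called without Sagunja-tang replicate 3 (adjusted p = 0.057). IL32 did not pass, at 1.23 (SE 0.34, adjusted p = 0.24). Several cytokines were near the floor. TNF, which itself activates NF-κB, had 11 counts in the 3 Sagunja-tang and 1 in the 3 Samul-tang libraries, IL1B, which does so too, 13 and 2, LTB 18 and 4, and IL6 had none. IL17C, an epithelial cytokine that acts back on the epithelium, belonged to no list and had 71 counts against 4 (0.591, 1.31 and 0.640 against 0.0642, 0.0681 and 0 CPM), with a log2 fold change of 4.08 (SE 0.59, adjusted p = 1.71e-05).

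**Figure D2:**
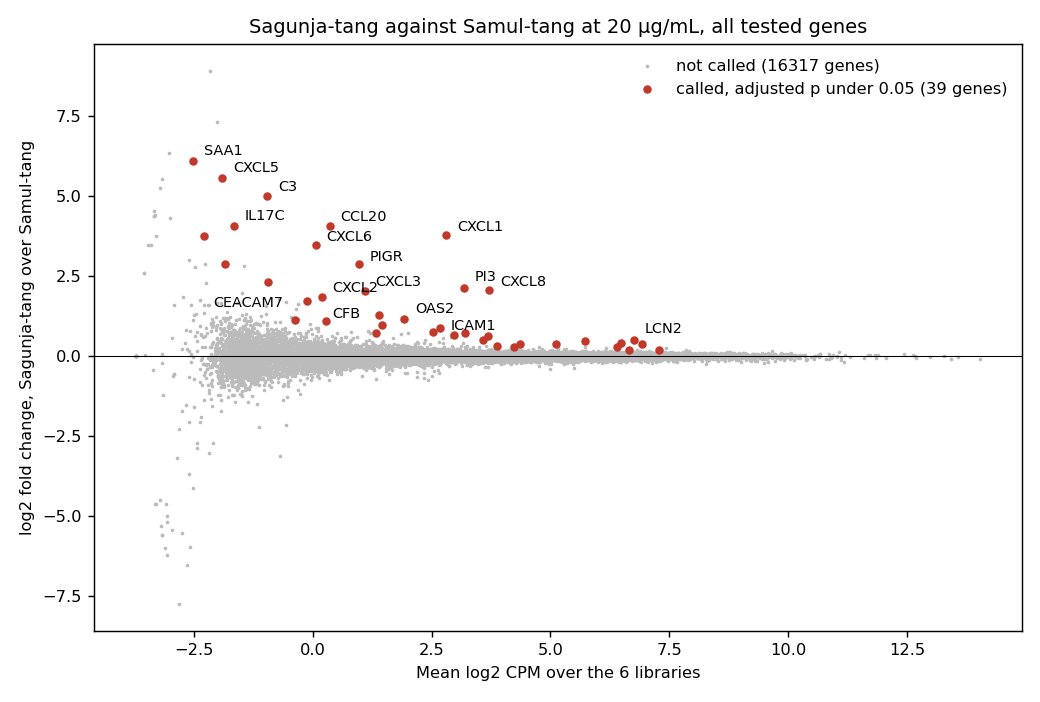
Each point is 1 of the 16356 genes tested, with its mean log2 CPM over the 6 libraries on the horizontal axis and its log2 fold change, Sagunja-tang over Samul-tang at 20 µg/mL, on the vertical axis. The 39 called genes (red) all lie above the line at 0. They run from SAA1 at the left edge, fitted at 6.11 against 0 Samul-tang counts, down to genes of high level at about 0.18. CXCL1 lies between them at 3.78. The grey points are the other 16317 genes, which centre near 0 but reach from -7.77 to 8.93.

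The NF-κB pathway is given from its receptors to its inhibitors. The receptors and adaptors upstream gave 0 called members of 29 tested, 0 at an unadjusted p under 0.05, and a median of 0.01. TLR4, the receptor of bacterial lipopolysaccharide, had a log2 fold change of -0.07 (SE 0.09), the adaptor MYD88 0.04 (SE 0.06) and the IL-1 receptor IL1R1 0.18 (SE 0.19). The receptors TLR2 and NOD2 had no counts in the 6 libraries, and TLR5, the flagellin receptor, had 4 and 7. Of 12 subunits and kinases, 1 rose. This was NFKB2, the p100 precursor of the non-canonical pathway, at 21.4, 20.1 and 20.1 CPM against 16.9, 17.8 and 16.4 CPM (0.27, SE 0.06, adjusted p = 0.049). NFKB1, at 0.04 (SE 0.05), RELA, at -0.02 (SE 0.07), and RELB, at 0.21 (SE 0.11), did not pass. The NFKB2 call was lost without any 1 of the 6 libraries, with an adjusted p from 0.070 without Samul-tang replicate 2 to 0.45 without Samul-tang replicate 3, and DESeq2 did not make it.

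Of 25 tested inhibitors and feedback genes, 5 rose, with a median of 0.09, and 22 of the 25 had a fold change above 0, as did 8042 of all 16356 genes. BIRC3, a ubiquitin ligase of TNF receptor complexes, was at 11.3, 12.5 and 11.3 CPM against 7.29, 6.74 and 7.20 CPM (0.73, SE 0.14, adjusted p = 0.0024). Its call held without any 1 library. TNFAIP3, the deubiquitinase A20 that ends NF-κB signalling, was at 3.39, 2.98 and 3.00 CPM against 1.86, 1.91 and 1.94 CPM (0.71, SE 0.16, adjusted p = 0.028). ZC3H12A, the ribonuclease Regnase-1 that degrades cytokine mRNA, was at 20.8, 25.3 and 23.5 CPM against 17.9, 16.7 and 19.1 CPM (0.38, SE 0.09, adjusted p = 0.049). SOD2, mitochondrial superoxide dismutase, had a log2 fold change of 0.28 (SE 0.06, adjusted p = 0.026), and TNIP1, a partner of A20, of 0.18 (SE 0.04, adjusted p = 0.028).

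Those 4 calls were close to the threshold. Each was lost without at least 5 of the 6 single libraries, with an adjusted p of up to 0.28 for TNFAIP3 and 0.27 for TNIP1, both without Sagunja-tang replicate 1, 0.45 for SOD2 without the same library, and 0.65 for ZC3H12A without Samul-tang replicate 2. NFKBIA, which encodes the inhibitor IκBα, stood at 0.16 (SE 0.10), NFKBIZ at 0.08 (SE 0.05) and TNFAIP2 at 0.19 (SE 0.06, adjusted p = 0.80), and none of them passed. Of the 5 called feedback genes, BIRC3, TNFAIP3, TNIP1 and ZC3H12A have a κB spelling in their promoter windows and SOD2 has none. The sites of TNFAIP3 and TNIP1 are shown with those of NFKB2 and MIR3142HG, which are not on the feedback list, with the motif in capitals. TNFAIP3 holds the second spelling 67 and 55 bases before the start, both on the minus strand, and NFKB2, TNIP1 and the miRNA host gene MIR3142HG hold the second spelling 21, 42 and 120 bases before it.
TNFAIP3 site at 67: gtgactttGGAAAGTCCCgtggaaat
TNFAIP3 site at 55: agtcccgtGGAAATCCCCgggcctac
NFKB2: gtattttcGGGACTTTCCtaagctgc
TNIP1: agtctccgGGGACTTTCCcaggggtg
MIR3142HG: atctagaaGGGACTTTCCagagaggg

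MIR3142HG, a noncoding RNA at chr5:160438594-160487426 on the plus strand, belonged to no list. It had 31 counts under Sagunja-tang and 2 under Samul-tang, a ratio of 16.2 with an exact 95% counting interval of 4.13 to 140 (adjusted p = 0.013). Its call was lost without Sagunja-tang replicate 2 (adjusted p = 0.051) or 3 (0.055) and without Samul-tang replicate 1 (0.24) or 3 (0.16). The gene spans the hairpin of miR-146a, a miRNA known to act against the adaptors IRAK1 and TRAF6 of NF-κB signalling. Its mature strand from RefSeq (GRCh38.p14) is shown with the seed, bases 2 to 8, in capitals, as the product that the transcript is known for. The mature miRNA was not measured in these libraries.
hsa-miR-146a-5p: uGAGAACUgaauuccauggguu

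Some interferon response genes passed the test. Of 44 genes, 43 were tested, 7 rose, none fell, and the median log2 fold change was 0.27. A fold change above 0 was found for 41 of the 43, and an unadjusted p under 0.05 for 27, beside 517 of all 16356 genes. OAS2, which senses double-stranded RNA and activates RNase L, was at 6.58, 4.64 and 5.59 CPM against 2.67, 2.55 and 2.24 CPM (1.16, SE 0.21, adjusted p = 0.0012). DDX60, a helicase of the antiviral response, was at 7.56, 6.81 and 7.81 CPM against 4.05, 4.56 and 4.66 CPM (0.74, SE 0.11, adjusted p = 1.15e-05). OAS3, of the same family as OAS2, was at 149, 125 and 142 CPM against 107, 107 and 105 CPM (0.39, SE 0.05, adjusted p = 3.90e-06). These 3 calls held without any 1 library. OAS2 and OAS3 are neighbours on chromosome 12 and related in sequence, so that reads can be divided between them.

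The other 4 calls in the interferon list were each lost when some single libraries were left out, which also weakens the test. MX1, a GTPase that blocks virus replication, was at 12.2, 8.08 and 9.13 CPM against 5.88, 6.67 and 5.97 CPM (0.66, SE 0.13, adjusted p = 0.0061). IRF9, a transcription factor of the interferon response, was at 15.8, 13.5 and 13.5 CPM against 9.38, 10.0 and 10.7 CPM (0.51, SE 0.10, adjusted p = 0.0083). IFI27 was at 19.1, 12.8 and 16.3 CPM against 9.51, 12.3 and 9.48 CPM (0.62, SE 0.14, adjusted p = 0.034), and PARP14, an ADP-ribosyltransferase, at 168, 161 and 169 CPM against 145, 145 and 150 CPM (0.18, SE 0.04, adjusted p = 0.021). Sagunja-tang replicate 1 was the highest of its group in 5 of the 7 genes. Without it, MX1 (adjusted p = 0.39), IRF9 (0.18), IFI27 (0.85) and PARP14 (0.16) were not called, and these genes were each lost without at least 2 further libraries as well. Over the fits that left out 1 of the 6 libraries, 3 to 11 members of the list were called, none of them lower.

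Among the 36 tested interferon genes that did not pass were IFI44L, at 1.63 (SE 0.40, adjusted p = 0.088), IFIT1, at 0.51 (SE 0.13, adjusted p = 0.11), CMPK2, at 0.61 (SE 0.18, adjusted p = 0.38), OAS1, at 0.27 (SE 0.08, adjusted p = 0.47), and ISG15, at 0.18 (SE 0.11, adjusted p = 1). SLFN5, also known as interferon-responsive, belonged to no list and was called, at 38.9, 39.7 and 40.7 CPM against 30.5, 28.7 and 31.9 CPM (0.39, SE 0.05, adjusted p = 3.91e-06). In the HLA class I list, 1 of 16 tested genes rose, with a median of 0.07. This was NLRC5, the activator of class I genes, at 0.985, 1.17 and 1.01 CPM against 0.418, 0.681 and 0.336 CPM (1.13, SE 0.26, adjusted p = 0.034), whose call was lost without any of the 6 libraries except Samul-tang replicate 2, with an adjusted p of up to 0.56 without Samul-tang replicate 3, and DESeq2 did not make that call. The class I gene HLA-B, at 0.24 (SE 0.19), and the peptide transporter gene TAP1, at 0.30 (SE 0.13), had an adjusted p of 1.

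The core of the interferon-stimulated response element, GAAA repeated after 2 unspecified bases, was searched in the same windows after the called genes were known. It was in 6 of the 30 called genes with a window, CFB, DDX60, IFI27, MX1, OAS3 and PARP14, and in 3.57% of all windows. The 5 interferon genes among them include OAS3, which also holds a κB spelling, with the element 143 and the κB spelling 129 bases before the start. Interferon response genes are already known to carry the element, so a match in such genes is no independent support. A gene with several windows, such as IFI27 or MX1, also has more chances of a match than a single window has. Sites of DDX60, 88 bases before the start, OAS3 and PARP14, 29 bases before it, are shown in the same way.
DDX60: gctgaaggGAAACTGAAAcctaagtg
OAS3: aaagaaacGAAACTGAAAgcagggaa
PARP14: caggaaacGAAAGCGAAAgagtcaaa

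**Figure D3:**
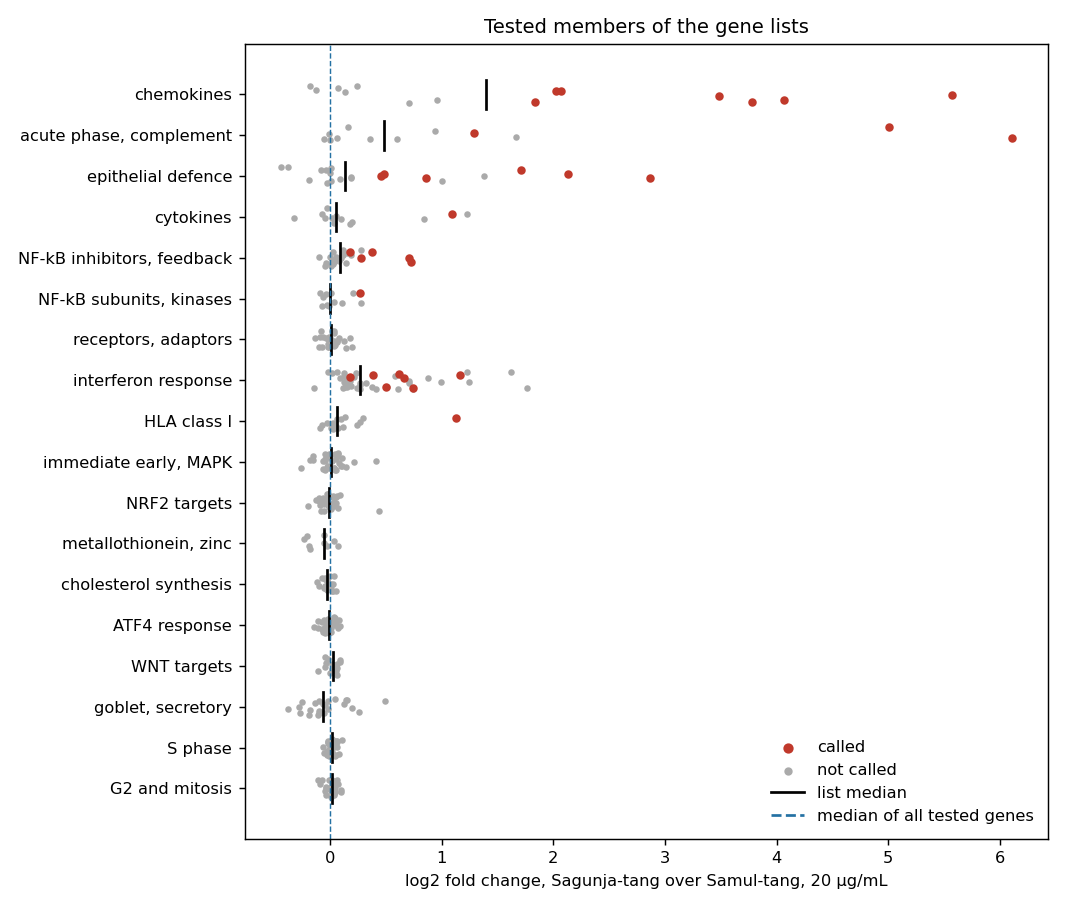
Log2 fold change, Sagunja-tang over Samul-tang at 20 µg/mL (horizontal axis), of the tested members of 18 gene lists, with called genes in red, other tested genes in grey, the median of each list as a black bar and that of all genes tested as a dashed line. The chemokine median lies at 1.40, the acute phase and complement median at 0.48 and the interferon median at 0.27, while the lists below HLA class I lie between -0.06 and 0.03 with no called member.

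A few called genes belonged to no list. POU2F2, a transcription factor best known in lymphocytes, was at 3.62, 3.47 and 4.24 CPM against 2.31, 1.53 and 1.90 CPM (0.98, SE 0.17, adjusted p = 0.001). IL4I1, a secreted amino acid oxidase, was at 0.985, 0.993 and 0.977 CPM against 0.0964, 0.170 and 0.336 CPM (2.30, SE 0.40, adjusted p = 0.00063). SDC4, a heparan sulfate proteoglycan, was at 112, 93.2 and 106 CPM against 82.7, 77.9 and 74.5 CPM (0.40, SE 0.08, adjusted p = 0.0076). ASS1, of arginine synthesis, had 0.31 (SE 0.07, adjusted p = 0.019), and DOC2B, a calcium sensor of vesicle release, 44 counts against 6 (2.88, SE 0.63, adjusted p = 0.021). POU2F2 and IL4I1 kept their calls without any 1 library. SDC4 lost its call without Sagunja-tang replicate 1 (adjusted p = 0.19) or 3 (0.079) or Samul-tang replicate 2 (0.070) or 3 (0.14), ASS1 without each library but Samul-tang replicate 3 (up to 0.23, without Samul-tang replicate 2), and DOC2B without each but Sagunja-tang replicate 3 and Samul-tang replicate 1 (up to 0.31, without Samul-tang replicate 3).

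Most other lists had no called member at this dose. The 30 NRF2 targets, antioxidant genes known to respond to reactive plant compounds, had a median of -0.01 and 1 member at an unadjusted p under 0.05. AKR1B10, an aldo-keto reductase, had a log2 fold change of -0.03 (SE 0.06), AKR1C2 -0.10 (SE 0.10), NQO1 -0.06 (SE 0.05) and HMOX1 -0.12 (SE 0.08), each with an adjusted p of 1. Metallothionein and zinc genes (9 tested, median -0.05; MT2A -0.18, SE 0.16), AhR targets (8, -0.01), cholesterol synthesis (25, -0.02), the ATF4 response (32, -0.01), WNT targets (17, 0.03; AXIN2 0.04, SE 0.05), S phase (40, 0.02) and G2 and mitosis genes (30, 0.02) had no called member and none at an unadjusted p under 0.05. Immediate early and MAPK feedback genes (34 tested, median 0.01) had 4 at that level, goblet and secretory genes (23, -0.06; MUC2 0.15, SE 0.12) also 4, and JAK-STAT3 genes (11, 0.01) 1, with no call. DESeq2 called none in these 11 lists.

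The formula difference was also present at the higher doses. At 100 µg/mL, 41 genes were called higher (0.251%) and 0 lower (275 lower at an unadjusted p under 0.05, and 0 called lower by DESeq2). At 500 µg/mL, 47 were higher (0.287%) and 5 lower (0.0306%). Without the filter on low counts, 106 were higher and 30 lower at 100 µg/mL, and 73 and 44 at 500 µg/mL. Of the 39 genes called at 20 µg/mL, 30 were called at 100, 35 at 500 and 28 at both. In the other direction, the 30 shared with 100 µg/mL are 30 of its 41 calls, and the 35 are 35 of the 52 at 500 µg/mL. The fold change was above 0 at 100 µg/mL in 38 of the 39, the exception being NLRC5 at -0.23, and at 500 µg/mL in all 39. Over all genes tested the median was -0.0019 at 100 and 0.0010 at 500 µg/mL. PARP14 and NLRC5 were called at 20 µg/mL and at neither higher dose, which does not show that they differ between doses. The 3 comparisons set separate libraries against each other. They come from the same fit, whose estimate of the spread draws on all 57 libraries, so they are not fully independent.

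The leading chemokines stood far above their Samul-tang level at all 3 doses, and their Sagunja-tang mean was lowest at 20 µg/mL. CXCL1 averaged 25.5 ± 1.69, 33.1 ± 0.931 and 34.0 ± 0.477 CPM at 20, 100 and 500 µg/mL under Sagunja-tang and 1.85 ± 0.174, 1.55 ± 0.157 and 2.41 ± 0.336 CPM under Samul-tang (SD, n = 3 each). CXCL8 averaged 26.7 ± 1.06, 31.0 ± 1.55 and 31.2 ± 3.03 CPM and 6.37 ± 0.147, 6.39 ± 0.674 and 7.50 ± 0.133 CPM. Their formula differences were 3.78 and 2.07 at 20 µg/mL, 4.41 (SE 0.18) and 2.28 (SE 0.10) at 100 µg/mL, and 3.81 (SE 0.16) and 2.06 (SE 0.09) at 500 µg/mL. Between the ends of this 25-fold range of dose, the CXCL1 difference changed by 0.02 (SE 0.26, 95% interval -0.51 to 0.55). That of CXCL8 changed by -0.01 (SE 0.13, -0.27 to 0.26). The larger differences at 100 µg/mL were not tested against those at the other doses.

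Tested across all genes, the formula difference at 500 minus that at 20 µg/mL gave 0 calls after the filter on low counts and 70 without it. With the filter, at an unadjusted p under 0.05 there were 444 genes, DESeq2 called 2, and the smallest adjusted p was 0.38, for AKR1B10. Of the 39 genes, 25 had a larger difference at 500 than at 20 µg/mL, and 2, SAA1, at -3.21, and NLRC5, at -0.78, reached an unadjusted p under 0.05, both with an adjusted p of 1.00. For CCL20 the change was 0.52 (95% interval -0.31 to 1.35), for PI3 0.28 (-0.08 to 0.65) and for C3 -0.80 (-2.38 to 0.77), so that changes of these sizes are not bounded away from 0.

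**Figure D4:**
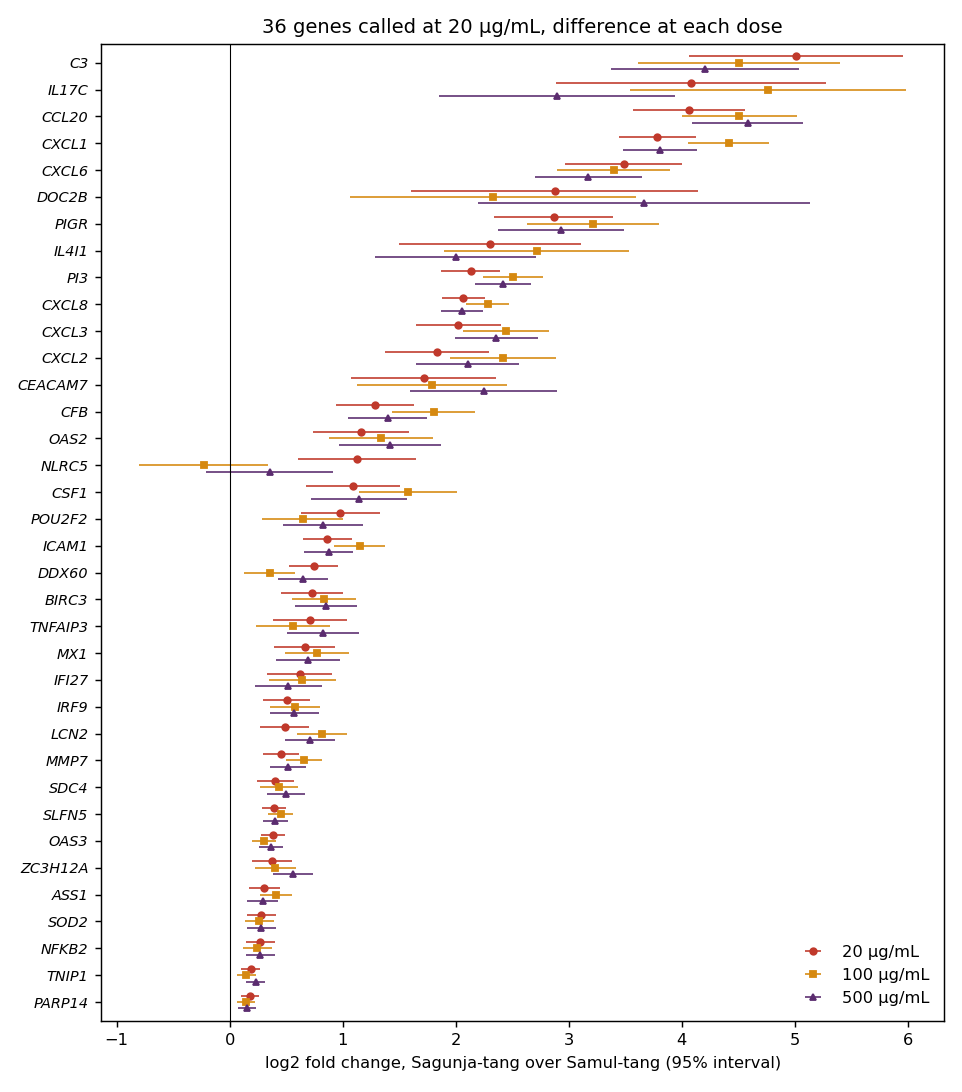
Log2 fold change, Sagunja-tang over Samul-tang (horizontal axis), with its 95% interval, at 20, 100 and 500 µg/mL (red circles, orange squares, purple triangles) for 36 of the 39 genes called at 20 µg/mL, leaving out the 3 with 0 to 2 counts under Samul-tang (CXCL5, SAA1 and MIR3142HG). The intervals of the 3 doses overlap with each other for every gene shown but NLRC5, whose value at 100 µg/mL, -0.23, is the only point below 0.

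The 5 genes called lower at 500 µg/mL were AKR1B10, at -0.40 (adjusted p = 4.77e-06), AKR1C2, at -0.45 (adjusted p = 0.0078), ALDH3A1, at -0.34 (adjusted p = 0.00011), SLC7A11, at -0.33 (adjusted p = 0.018), and ME1, at -0.17 (adjusted p = 0.025). All 5 are members of the NRF2 list, whose median was -0.15 at 500 and -0.01 at 20 µg/mL. At 20 µg/mL, ALDH3A1, SLC7A11 and ME1 were at 0.00 (SE 0.06), 0.06 (SE 0.07) and 0.01 (SE 0.04). Genes that passed at a higher dose but not at 20 µg/mL included IL32, at 1.66 (adjusted p = 0.0063), TNFAIP2, at 0.36 (adjusted p = 0.00044), and PTGS2, at 0.44 (adjusted p = 3.16e-06), all at 500 µg/mL. In the test of the change between doses, edgeR called none of these genes and DESeq2 called AKR1B10 (-0.37, adjusted p = 0.030).

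The vehicle libraries are set beside the 39 genes, which were chosen for being higher in the same Sagunja-tang libraries. That choice favours a place above the vehicle too, and the shares over all genes tested were not counted. For 36 of the 39 genes all vehicle libraries lay below all Sagunja-tang libraries at 20 µg/mL, the exceptions being MMP7, LCN2 and ZC3H12A, and for 38 the vehicle mean was nearer to the Samul-tang mean. CXCL1 was at 1.97, 1.74 and 2.66 CPM in the vehicle libraries, CXCL8 at 5.68, 5.39 and 6.02 CPM, CCL20 at 0.189, 0.255 and 0.150 CPM, and PI3 at 6.02, 6.33 and 5.27 CPM. All 3 CXCL8 values lie below the Samul-tang range and all 3 PI3 values above it, by amounts far smaller than the distance to Sagunja-tang. No test against the vehicle was made here, and the part of the higher mitochondrial share of the vehicle libraries in these levels was not tested.

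Over the 57 libraries of the 19 groups with 3 libraries, all 9 Sagunja-tang libraries lay above the other 48 for 26 of the 39 genes. The share over all genes tested was not counted. The 39 were chosen as higher in 3 of these 9 libraries, which favours such a place. CXCL1 ran from 24.1 to 34.5 CPM in the 9 and from 1.07 to 4.39 CPM in the 48, and CXCL8 from 25.7 to 34.7 and from 4.78 to 9.15 CPM. The next highest group was Cinnamomi Cortex (cinnamon bark) at 500 µg/mL for both genes, with 3.96 ± 0.471 CPM of CXCL1 and 8.36 ± 0.196 CPM of CXCL8 (SD, n = 3), followed by Cnidii Rhizoma at 500 µg/mL with 3.25 ± 0.241 and 7.59 ± 1.37 CPM. The ranges of these 2 groups overlap for CXCL8 and nearly meet for CXCL1, and for CXCL8 Samul-tang at 500 µg/mL, at 7.50 ± 0.133 CPM, lies within the range of Cnidii Rhizoma. Among the interferon genes, OAS3 ran from 123 to 149 CPM in the 9 and from 90.4 to 112 CPM in the 48, while MX1, IRF9, OAS2, DDX60 and PARP14 overlapped.

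**Figure D5:**
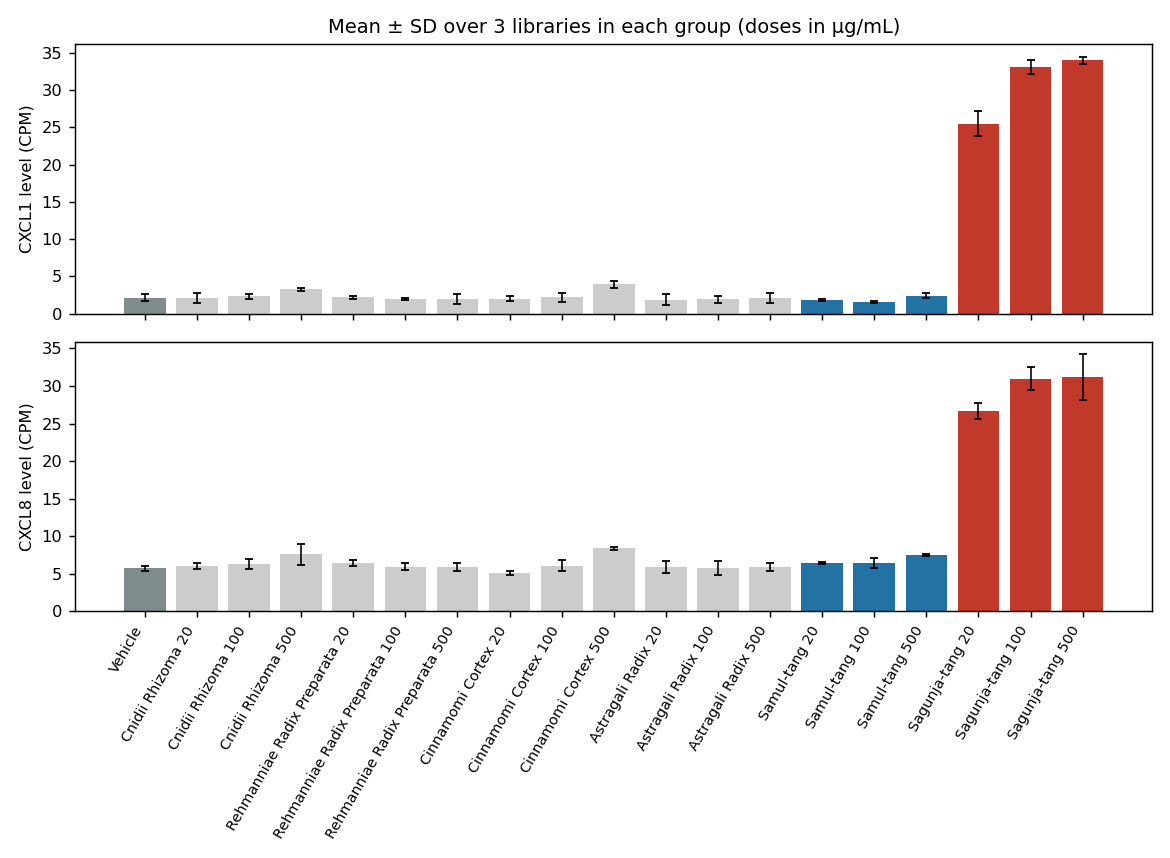
Mean level in CPM (bars from 0, linear axis) with SD (error bars) of CXCL1 (top) and CXCL8 (bottom) over the 3 libraries of each of 19 groups, with doses in µg/mL. The Sagunja-tang bars (red) lie between 25.5 and 34.0 CPM for CXCL1 and between 26.7 and 31.2 CPM for CXCL8, and every other bar is at or below 3.96 and 8.36 CPM.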

How the data were processed

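HT29 libraries were grouped by formula and dose as the labels give them. The deposited values are RSEM expected counts per gene for 60675 genes, not normalized by the authors. The submitters' processing notes name GRCh38 (hg38), RSEM 1.3.3, STAR 2.7.3a, Trim Galore 0.6.5 and FastQC 0.11.9, and no source used here gives the strand setting or the annotation release. Expected counts, of which 8.8% were not whole, were rounded. The deposited table has 273 value columns, of which 60 belong to these samples and 213 were not used. The labels give the vehicle as 0.1% dimethyl sulfoxide and the design text as 2%.

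Genes kept by filterByExpr (minimum count 10) entered the quasi-likelihood test of edgeR 4.0.16 (limma 3.58.1, R 4.3.3), with TMM factors, on 57 libraries in 19 groups of 3. Paeoniae Radix, with 1 library per dose, was left out. Each of 4 comparisons had its own Benjamini-Hochberg adjustment over 16356 genes, and calls were made under 0.05. The 60 libraries held 20459346 to 36253747 counts, and intervals of count ratios are exact 95% intervals for counting error only. Nothing in the labels ties replicates to separate cultures, so the spread behind each p-value may be technical. The scripts were tested on simulated data. Alternatives were RLE factors, no filter or a stricter one, DESeq2 1.42.0, smaller sets of libraries, a replicate block and leaving out each library.

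The comparison and the gene lists were chosen with earlier results of these data known. Named genes are the 10 with the largest called fold change at a mean log2 CPM of at least 1, up to 6 called members per list, a fixed panel and list members given beside their list, and at 500 µg/mL the 5 lower ones. SLFN5, IL17C, IL4I1, SDC4, MIR3142HG, ASS1 and DOC2B were named after their values were seen. Symbols came from a gene name table for 41209 identifiers and from GENCODE 29 for 15846, with 3620 unnamed. Promoter and miRNA sequences are those of RefSeq on GRCh38.p14.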

Additional observations from a re-analysis of the deposited data

Results flagged for a closer look

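The 3 libraries of Paeoniae Radix, 1 per dose, entered no comparison, and 3 of their 6 values of CXCL1 and CXCL8 lay above all 3 vehicle libraries. CXCL1 was at 3.00 CPM in the library at 500 µg/mL. CXCL8 was at 8.23 CPM at 500 µg/mL and at 6.86 CPM at 20 µg/mL. All 3 values are far below the Sagunja-tang libraries and, with 1 library a dose, have no replicate check.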

How the results depend on the processing

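The count of 39 genes at 20 µg/mL was within 1.5 times under each planned setting except one. Without a filter on low counts, 125 genes were called at 20 µg/mL (71 higher, 54 lower, 34 shared with the 39), 136 at 100, 117 at 500 and 70 for the change between doses. Of the 125, 8 lay outside the filtered genes and 117 within them, and the cause of the added calls was not tested. DESeq2 called 35 at 20 µg/mL and 2 for the change between doses, AKR1B10 (-0.37) and an unnamed gene. The 2 genes it called lower at 20 µg/mL, an unnamed gene with 27 counts and AC114546.3 with 87, each had all these counts in a single Samul-tang library and 0 in the other 5. The fit of only the 6 libraries called 29.

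Leaving out 1 library of either group gave 26 to 34 calls at 20 µg/mL, 32 to 40 at 100, 40 to 47 at 500 and 0 for the change between doses. The fewest, 26, came without Sagunja-tang replicate 1 or without Samul-tang replicate 1 or 3. Of the 39 genes, 18 lost their call without at least 1 library, 21 were called under every setting that tested them, and 0 changed sign under any of the 13. Neither NFKB1 nor RELA was called. NFKB1 ranged from -0.014 to 0.091 and was below 0 without Sagunja-tang replicate 1 or Samul-tang replicate 3 (-0.011). RELA ranged from -0.052 to 0.0023 and was above 0 without Sagunja-tang replicate 1 (0.0015) or Samul-tang replicate 1.

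Deviations of same-numbered libraries correlated at 0.09, 0.05 and 0.00, and those of differently numbered libraries at -0.083 to 0.030. Such small values over all genes cannot settle whether replicate numbers pair the samples. The main fit had no replicate block. A replicate block on the 18 formula libraries gave 37 calls at 20 µg/mL, 52 at 100, 60 at 500 and 0 for the change between doses, and the same libraries without it 36, 42, 55 and 0. Fold changes of genes with few counts under Samul-tang are limited by depth.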
